A study of Mus musculus with 68 samples.

Results

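Lungs taken 6 h after an injection of vehicle alone were set against the lungs of untreated mice, to show how far a mock injection and the hours after it alter the lung. The 6 h vehicle lungs gave 3 libraries and the untreated lungs gave 3, out of 68 libraries of heart, lung, kidney and liver in the series. The libraries were picked by their labels and no gene was picked in advance, so all 56748 genes of the count table were considered. Of these, 27570 had a read in the 6 libraries and 16778 passed the filter on low counts and were tested. The mice of both groups were wild-type C57BL/6J females of 10 weeks, an inbred laboratory strain, kept under a light and dark cycle with free access to food. The vehicle mice received 50 to 60 µL of phosphate buffered saline (PBS), the solvent for epidermal growth factor (Egf) in the study's other mice, behind the eye under isoflurane anaesthesia. The untreated mice received no injection, and 3 such mice were used in all. No mouse of either group carried an introduced allele or received Egf. The labels give neither the clock time of harvest nor the mouse behind each library, so the injection, the anaesthesia and the time of day cannot be told apart as sources of a difference.

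Of the 17 genes that differed, 6 are on the lists of circadian clock genes and clock output genes. Those lists hold 18 and 15 of the 16778 genes tested, with Ciart on both. They were chosen with earlier results of these data known. In mammals the clock is a feedback loop that runs in most cells, lung cells included. The activators Clock (or its relative Npas2) and Arntl, also called Bmal1, bind E-box sequences and switch on their own repressors, the Per and Cry genes and Ciart. The nuclear receptors Nr1d1 and Nr1d2 repress Arntl through another sequence, the ROR response element, at which the related Ror receptors activate it. The PAR bZIP factors Dbp, Tef and Hlf carry the rhythm on to many other genes through D-box sequences, and Nfil3 opposes them there.

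The start regions of 5 of the 6 clock and clock output genes called in lung are shown because the loop acts through motifs at such regions, and Wee1 is named only. The RefSeq table on GRCm38.p6 holds the 250 bases before and the 50 bases after each start, and 10 of the 16 genes named below had an entry. The E-box searched was CACGTG and the ROR element AGGTCA directly after AANT, on both strands. Where the table held several windows for a gene, the one with most matches is printed. Capitals mark the E-box in Cry1, Ciart, Tef and Tspan4 and the ROR element in Arntl.
Cry1, chr10:85185005-85185304, minus strand: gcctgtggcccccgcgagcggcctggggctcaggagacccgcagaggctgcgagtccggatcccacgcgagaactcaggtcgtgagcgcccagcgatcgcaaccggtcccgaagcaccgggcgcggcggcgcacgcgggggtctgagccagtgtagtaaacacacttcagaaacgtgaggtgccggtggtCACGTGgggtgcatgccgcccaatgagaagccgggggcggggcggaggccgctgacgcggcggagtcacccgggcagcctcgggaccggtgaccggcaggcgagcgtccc
Ciart, chr3:95882179-95882478, minus strand: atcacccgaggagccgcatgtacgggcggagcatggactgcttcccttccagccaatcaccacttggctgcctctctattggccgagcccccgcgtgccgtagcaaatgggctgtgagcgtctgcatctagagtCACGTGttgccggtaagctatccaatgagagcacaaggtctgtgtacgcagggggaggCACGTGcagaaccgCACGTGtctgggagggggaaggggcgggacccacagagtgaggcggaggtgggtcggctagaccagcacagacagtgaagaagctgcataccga
Tef, chr15:81802423-81802722, plus strand: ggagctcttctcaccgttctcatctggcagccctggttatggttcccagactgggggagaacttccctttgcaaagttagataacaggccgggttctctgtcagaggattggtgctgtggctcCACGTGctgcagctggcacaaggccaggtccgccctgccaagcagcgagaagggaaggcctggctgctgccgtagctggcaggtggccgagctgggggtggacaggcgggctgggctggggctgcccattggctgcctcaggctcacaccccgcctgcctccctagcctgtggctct
Tspan4, chr7:141476130-141476429, plus strand: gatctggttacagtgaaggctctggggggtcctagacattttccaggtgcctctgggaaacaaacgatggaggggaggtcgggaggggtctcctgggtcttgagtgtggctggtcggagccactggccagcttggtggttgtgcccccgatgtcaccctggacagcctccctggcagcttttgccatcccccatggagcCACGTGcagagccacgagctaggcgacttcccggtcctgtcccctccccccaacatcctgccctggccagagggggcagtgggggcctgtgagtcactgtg
Arntl, chr7:113207261-113207560, plus strand: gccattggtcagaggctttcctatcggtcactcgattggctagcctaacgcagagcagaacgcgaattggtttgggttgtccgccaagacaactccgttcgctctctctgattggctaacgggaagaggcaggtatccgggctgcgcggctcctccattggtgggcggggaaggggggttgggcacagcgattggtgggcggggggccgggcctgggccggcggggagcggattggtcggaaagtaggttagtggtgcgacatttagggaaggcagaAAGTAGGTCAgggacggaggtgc

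An E-box lay 60 bases before the start in Cry1, 127 before it in Tef and 51 before it in Tspan4. The Ciart window held an E-box at 116, 58 and 44 bases before the start. E-boxes occurred in 7.15% of the 32851 start windows of the table. Counted by gene, 8.09% of 27025 genes had one in any window, beside 4 of the 10 named genes with an entry. The ROR element of Arntl lay 27 bases after the start, and 0.219% of windows and 0.259% of genes held one. The other motifs searched on both strands were the D-box TTATGTAA, present in 0.938% of windows, the cAMP response element TGACGTCA, in 1.79%, the glucocorticoid response element, AGAACA and TGTTCT spaced by NNN, in 0.00913%, and the heat shock element, GAA, TTC and GAA each spaced by NN, in 0.603%. None of these letters stood in the windows of the 10 named genes. A match is a description of the sequence and says nothing of binding in these lungs.

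The 6 libraries held between 16436692 and 19037959 counted reads, and no 2 of one group were alike within sampling noise. The alveolar type II markers, surfactant genes among them, summed to between 38000 and 43000 CPM (read counts scaled to the library total) in the vehicle lungs and to between 37600 and 40700 in the untreated lungs, as lung tissue has. Several libraries stood apart. Hepatocyte marker genes summed to 636, 4030 and 2810 CPM in the vehicle lungs, against 676, 712 and 689 CPM in the untreated lungs. Trf alone gave 624, 1020 and 1030 CPM of this in the vehicle lungs and 669, 660 and 653 CPM in the untreated lungs. The liver albumin gene Alb had 6.63, 1830 and 1190 CPM in the vehicle lungs and 4.51, 32.1 and 18.1 CPM in the untreated lungs. Kidney tubule markers summed to 51.5, 53.5 and 58.7 CPM in the vehicle lungs and to 53.6, 71.2 and 515 CPM in the untreated lungs. The third untreated lung was thus the high one. Lrp2 alone gave 48.8, 42.6 and 50.9 CPM of this in the vehicle lungs and 52.9, 69.7 and 103 CPM in the untreated lungs. Fat markers summed to 338, 846 and 389 CPM in the vehicle lungs and to 311, 996 and 352 CPM in the untreated lungs. Replicate 2 was the highest of each group. Skeletal muscle markers were also highest in untreated replicate 2, at 49.5 CPM. Untreated replicate 1 stood apart in clock and interferon genes, as described below. Fewer cells of a type and less RNA per cell cannot be told apart in such bulk tissue.

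Between the vehicle lungs at 6 h and the untreated lungs, 17 of 16778 genes differed (edgeR quasi-likelihood test over all 17 lung libraries, Benjamini-Hochberg adjusted p under 0.05). This was 0.101% of the genes tested. The calls split into 10 higher, 0.0596%, and 7 lower, 0.0417%, in the vehicle lungs. At an unadjusted p under 0.05 the same test took 1645 genes, or 9.8%, of which 788 were higher, 4.7%, and 857 lower, 5.11%. The median log2 change over all genes was 0.02. DESeq2 called 144 genes and limma voom 124 on the same libraries, and each list held all 17. With the replicate number as a block the edgeR count was 4, namely Cry1, Fam124b, Snx22 and Arntl. With the hepatocyte marker sum as a further term it was 5, those 4 and Olfr1033.

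**Figure D1:**
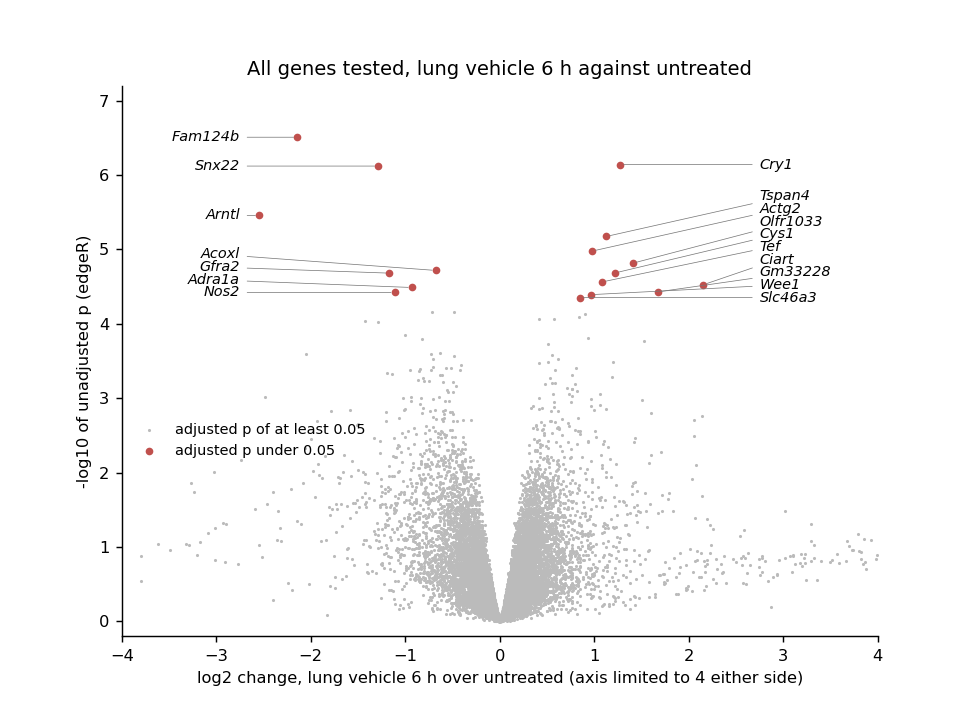
Each point is 1 of the genes tested in lung, with the log2 change of vehicle 6 h over untreated on the horizontal axis and the -log10 of the unadjusted edgeR p on the vertical axis. The 17 called genes are coloured, and the clock repressor Cry1 and the activator Arntl lie near the top on opposite sides; 148 genes with larger changes fall outside the horizontal axis.

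Of the activators of the clock, Arntl fell in the vehicle lungs. Arntl (chromosome 7, 112806672 to 112913333, plus strand, mm39), the partner of Clock, stood at 1.71, 1.96 and 2.81 CPM in the vehicle lungs and at 5.53, 15.9 and 16.6 CPM in the untreated lungs. The groups did not overlap, and the untreated value of replicate 1 was the nearest to the vehicle lungs. Its log2 change was -2.55 ± 0.37 (SE, n = 3 each, edgeR adjusted p = 0.0146). Clock itself had 55.6, 56.9 and 48.9 CPM in the vehicle lungs and 72.5, 75.6 and 78.0 CPM in the untreated lungs, without overlap, and just missed the threshold (log2 change -0.49 ± 0.09, edgeR adjusted p = 0.0612). Npas2, which can take the place of Clock, had 0.80, 1.46 and 1.48 CPM against 1.45, 5.66 and 5.81 CPM in the untreated lungs, and did not pass (log2 change -1.79 ± 0.47, edgeR adjusted p = 0.219). The groups overlapped because untreated replicate 1 lay within the vehicle range.

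Of the repressors of the loop, Cry1 and Ciart rose. Cry1 (chromosome 10, 84967564 to 85020928, minus strand, mm39), which shuts off Clock and Arntl, had 30.9, 28.7 and 28.6 CPM in the vehicle lungs and 10.3, 13.8 and 12.4 CPM in the untreated lungs. All vehicle values lay above all untreated ones, with a log2 change of 1.27 ± 0.16 (SE, n = 3 each, edgeR adjusted p = 0.00423). Ciart (chromosome 3, 95785815 to 95789563, minus strand, mm39), a further repressor of the same pair, had 7.95, 5.19 and 7.16 CPM in the vehicle lungs, against 2.63, 0.952 and 0.968 CPM in the untreated lungs. Its log2 change was 2.16 ± 0.38 (edgeR adjusted p = 0.0416), and replicate 1 was again the untreated lung nearest to the vehicle level. Per2 had 36.1, 24.8 and 35.9 CPM in the vehicle lungs and 21.6, 16.9 and 7.53 CPM in the untreated lungs, and Per1 had 109, 87.7 and 106 CPM, against 48.6, 74.4 and 19.4 CPM. Neither passed the test over all genes, with edgeR adjusted p = 0.352 for Per2 and 0.378 for Per1, although neither pair of groups overlapped. Per3 overlapped between the groups (log2 change 0.91 ± 0.40, edgeR adjusted p = 0.477).

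The 2 Nr1d receptors lay on opposite sides. Nr1d2 had 178, 204 and 179 CPM in the vehicle lungs and 154, 79.7 and 87.9 CPM in the untreated lungs, and Nr1d1 had 145, 116 and 155 CPM, against 283, 216 and 210 CPM. The log2 change was 0.80 ± 0.19 for Nr1d2 and -0.77 ± 0.25 for Nr1d1, and neither passed (edgeR adjusted p = 0.161 and 0.373). The kinases Csnk1d and Csnk1e, which mark Per proteins for decay, had log2 changes of -0.08 ± 0.09 and -0.09 ± 0.13, and the groups overlapped in both.

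Of the 18 core clock genes tested, 2 rose and 1 fell, and 12, or 66.7%, had an unadjusted p under 0.05, beside 9.8% of all genes tested. DESeq2 and limma voom each called 6 of the 18. The libraries of the groups did not overlap in 10 of the 18, 7 higher and 3 lower, beside 8.51% and 8.34% of all genes. These genes were listed with earlier results of these data known. With the replicate block, 2 of the 18 were called, Cry1 and Arntl.

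The called genes on the clock output list all rose. That list was chosen with earlier results of these data known, and whether the clock acts through each member in lung was not tested. Tef (chromosome 15, 81686622 to 81711064, plus strand, mm39) had 481, 480 and 448 CPM in the vehicle lungs and 311, 164 and 188 CPM in the untreated lungs. The groups did not overlap, and its log2 change was 1.09 ± 0.19 (SE, n = 3 each, edgeR adjusted p = 0.0416). Wee1 (chromosome 7, 109721253 to 109742493, plus strand, mm39), a kinase that holds back entry into mitosis, rose to 40.2, 40.5 and 45.7 CPM in the vehicle lungs, against 23.9, 23.3 and 17.3 CPM in the untreated lungs (log2 change 0.97 ± 0.17, edgeR adjusted p = 0.0424). Tspan4 (chromosome 7, 141055153 to 141073340, plus strand, mm39), a membrane tetraspanin, had 139, 146 and 127 CPM in the vehicle lungs and 83.5, 51.1 and 54.0 CPM in the untreated lungs (log2 change 1.13 ± 0.17, edgeR adjusted p = 0.0224). In both Tef and Tspan4 the highest untreated lung was replicate 1.

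Dbp, the best known output factor, passed or failed with that library. It had 176, 178 and 182 CPM in the vehicle lungs and 161, 38.9 and 55.6 CPM in the untreated lungs. It did not pass with all 6 libraries (log2 change 1.07 ± 0.41, edgeR adjusted p = 0.435), and without untreated replicate 1 it did (log2 change 1.92 ± 0.28, edgeR adjusted p = 0.0126). Hlf had 64.2, 56.1 and 62.4 CPM in the vehicle lungs and 44.6, 21.3 and 27.6 CPM in the untreated lungs (log2 change 0.97 ± 0.25, edgeR adjusted p = 0.218). Nfil3, the opponent of these factors, had a log2 change of -0.82 ± 0.26 and overlapping groups (edgeR adjusted p = 0.354). Of the 15 clock output genes tested, 4 rose (Tspan4, Tef, Ciart and Wee1) and none fell. An unadjusted p under 0.05 was reached by 12, or 80%, beside 9.8% of all genes tested. DESeq2 called 6 of the 15 and limma voom 7, and the replicate block left 0 called with 12 still under an unadjusted p of 0.05. Ciart is on both clock lists.

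**Figure D2:**
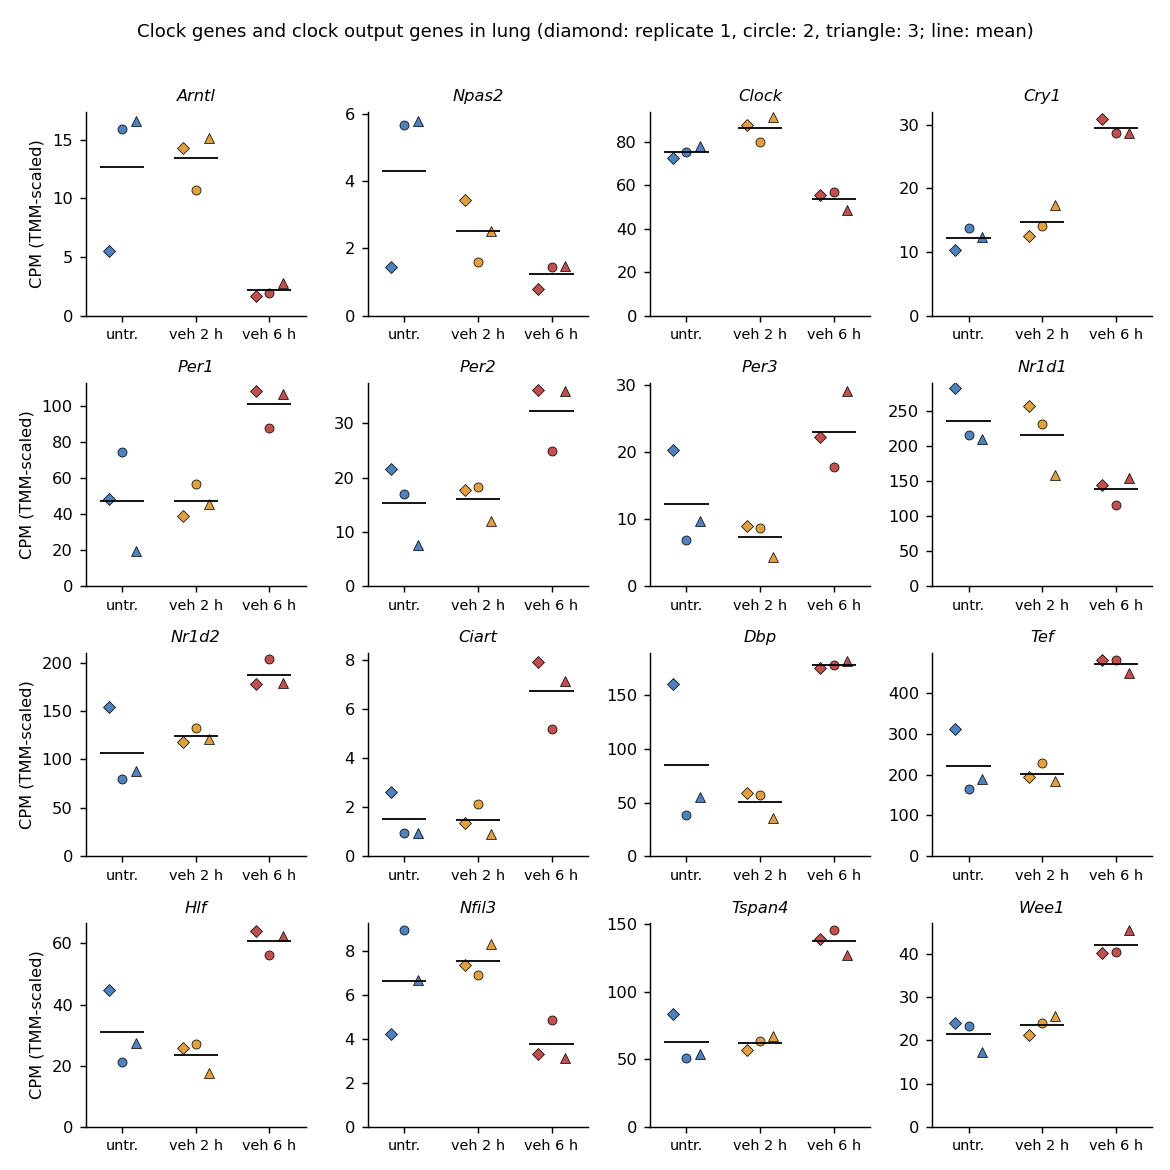
Each panel gives 1 clock or clock output gene in lung, with the TMM-scaled CPM of every library on the vertical axis by group, symbols for the replicate number and a line for the mean. Arntl is low and Tef high in all 3 vehicle lungs at 6 h, and the diamond of untreated replicate 1 lies toward the 6 h lungs in both.

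Leaving out untreated replicate 1 again gave 17 called genes, of which 8 were among the 17 with all libraries: Arntl, Tef, Fam124b, Tspan4, Ciart, Snx22, Cry1 and Cys1. The genes called without it and not with it included Nr1d2 (log2 change 1.16 ± 0.14, edgeR adjusted p = 0.00186), Dbp, Hlf and Npas2. In that fit 5 of 18 core clock genes and 5 of 15 output genes were called, beside 17 of all 17138 genes tested. Over all 18 core clock genes, replicate 1 was the untreated lung nearest to the vehicle mean in 11, and over the 15 output genes in 10. Over all genes tested, that library was the nearest in 26.7%. Leaving out the untreated lung nearest to the vehicle lungs widens the difference of such genes, so the clock counts of that fit are no separate support.

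In the other organs replicate 1 was the untreated library nearest to the vehicle 6 h mean in 11 of 18 core clock genes in heart, in 12 of 18 in kidney and in 10 of 18 in liver, beside 31.8%, 28.7% and 38.3% of all genes in those organs; these shares were not tested. Dbp had 110, 28.3 and 28.4 CPM in the untreated hearts, 121, 50.4 and 34.5 CPM in the untreated kidneys and 75.6, 8.35 and 30.5 CPM in the untreated livers, in the order of replicates 1 to 3. In each organ the first of these was the highest and lay below every vehicle library at 6 h. The labels do not say whether libraries of 1 number came from 1 mouse.

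**Figure D3:**
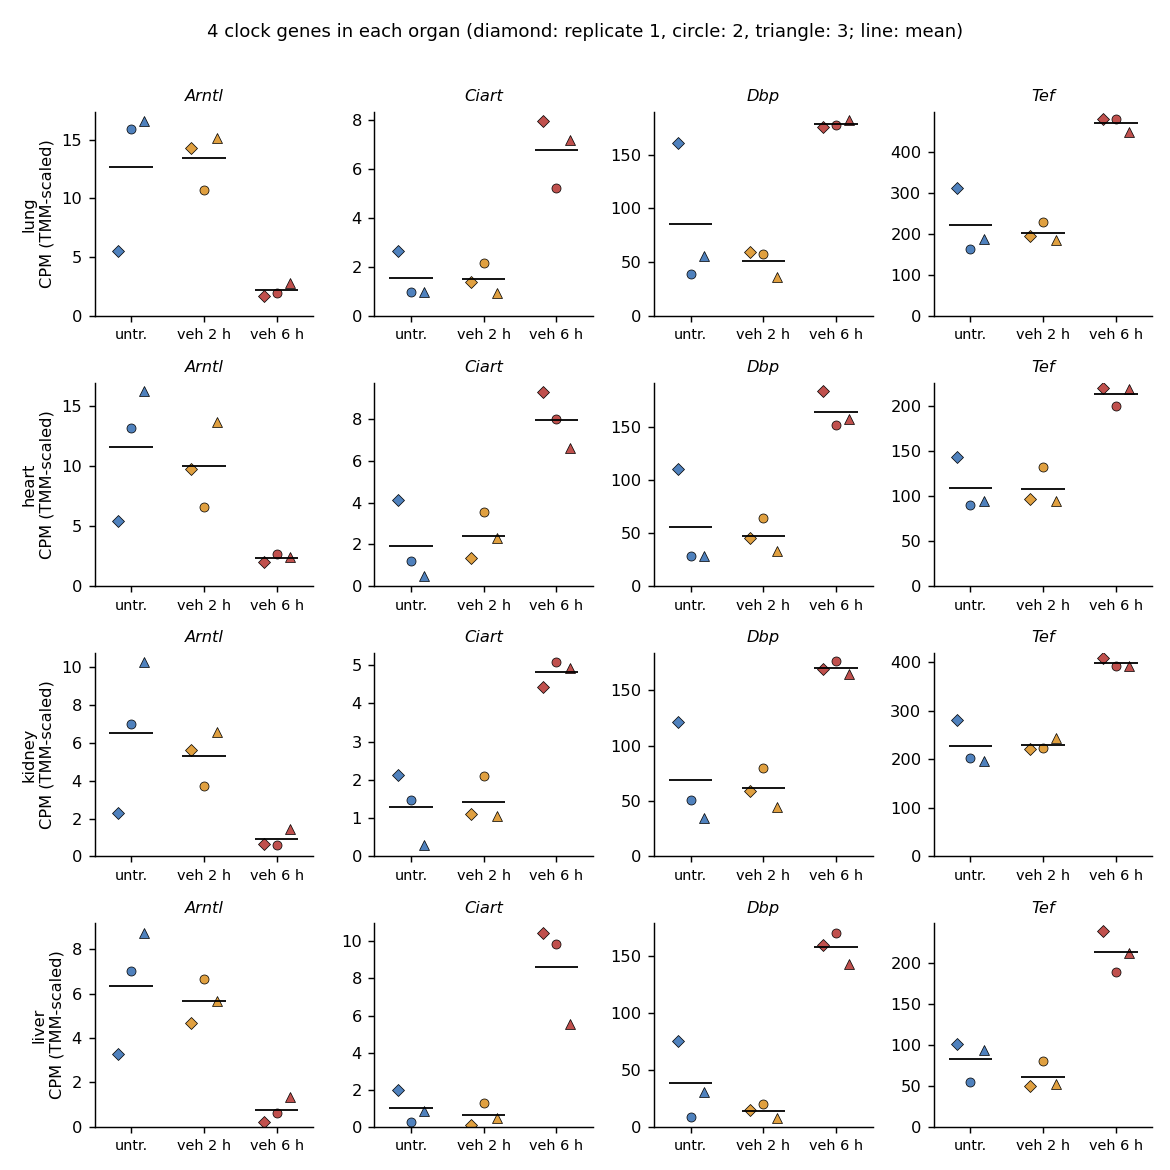
Each row is 1 organ and each column 1 of 4 clock genes, with TMM-scaled CPM on the vertical axis, every library as a symbol for its replicate number and a line for the group mean. Replicate 1 of the untreated group, the diamond, lies between the other untreated libraries and the vehicle 6 h libraries for Arntl and Dbp in heart, kidney and liver as well as in lung.

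Outside the clock lists, the largest fall among the called genes was that of Fam124b (chromosome 1, 80176423 to 80196190, minus strand, mm39). It had 1.07, 1.14 and 1.59 CPM in the vehicle lungs and 4.08, 6.76 and 6.02 CPM in the untreated lungs, with a log2 change of -2.14 ± 0.26 (SE, n = 3 each, edgeR adjusted p = 0.00423). Snx22 (chromosome 9, 65972458 to 65977001, minus strand, mm39), a sorting nexin, had 2.61, 2.28 and 2.86 CPM in the vehicle lungs, against 7.03, 6.26 and 5.70 CPM in the untreated lungs (log2 change -1.29 ± 0.17, edgeR adjusted p = 0.00423). Fam124b and Cry1 were called in all 6 fits that left out 1 library, and Snx22 in 5 of them, the exception being the fit without vehicle replicate 2. The remaining 13 named genes were each lost in 4 or more of those 6 fits.

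Gfra2, Adra1a and Nos2 also fell. Gfra2 (chromosome 14, 71127560 to 71217278, plus strand, mm39), the receptor for the neurotrophic factor neurturin, had 13.5, 9.88 and 16.6 CPM in the vehicle lungs and 29.5, 33.5 and 27.0 CPM in the untreated lungs (log2 change -1.17 ± 0.20, edgeR adjusted p = 0.0349). Adra1a (chromosome 14, 66872700 to 67008617, plus strand, mm39), an adrenaline receptor, had 8.96, 6.71 and 7.57 CPM, against 14.97, 14.2 and 15.2 CPM in the untreated lungs (log2 change -0.93 ± 0.16, edgeR adjusted p = 0.0419). Nos2 (chromosome 11, 78811613 to 78851080, plus strand, mm39), the inducible nitric oxide synthase, had 3.84, 3.04 and 3.94 CPM, against 8.05, 8.57 and 6.83 CPM in the untreated lungs (log2 change -1.11 ± 0.20, edgeR adjusted p = 0.0423). No vehicle value of these genes reached an untreated one.

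Acoxl (chromosome 2, 127680796 to 127965793, plus strand, mm39), a relative of the peroxisomal acyl-CoA oxidases, fell to 63.9, 61.0 and 62.2 CPM in the vehicle lungs, against 109, 91.7 and 98.2 CPM in the untreated lungs (log2 change -0.68 ± 0.11, edgeR adjusted p = 0.0349). Actg2 (chromosome 6, 83489887 to 83513247, minus strand, mm39), the smooth muscle gamma actin, rose to 52.98, 63.7 and 56.8 CPM in the vehicle lungs, against 22.6, 31.8 and 33.5 CPM in the untreated lungs (log2 change 0.98 ± 0.16, edgeR adjusted p = 0.0294). The smooth muscle and pericyte markers, of which Actg2 is one, summed to 909, 958 and 1020 CPM in the vehicle lungs and to 690, 912 and 857 CPM in the untreated lungs. The part of that cell type in the rise was not tested. Cnn1, the smooth muscle calponin and also on that list, just missed the threshold (log2 change 0.83 ± 0.16, edgeR adjusted p = 0.0627). Of the 9 smooth muscle and pericyte markers tested, 7 had a positive change and 2 a negative one. At an unadjusted edgeR p under 0.05, 3 of the 9 were higher and 1 lower. The lower one was Pdgfrb (log2 change -0.48 ± 0.17, edgeR adjusted p = 0.404), and Myh11 changed by 0.06 ± 0.32.

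Cys1 (chromosome 12, 24715832 to 24731812, minus strand, mm39), a protein of the primary cilium, had 32.2, 27.1 and 26.4 CPM in the vehicle lungs and 14.8, 9.97 and 11.9 CPM in the untreated lungs (log2 change 1.22 ± 0.21, edgeR adjusted p = 0.0349). Slc46a3 (chromosome 5, 147815247 to 147831625, minus strand, mm39), a lysosomal transporter, had 47.7, 56.4 and 47.2 CPM, against 30.3, 22.6 and 31.1 CPM in the untreated lungs (log2 change 0.85 ± 0.15, edgeR adjusted p = 0.0437). Olfr1033 (chromosome 2, 85850977 to 85875515, plus strand, mm39), annotated as an olfactory receptor, had 21.9, 35.4 and 20.9 CPM, against 7.35, 10.9 and 11.2 CPM in the untreated lungs (log2 change 1.41 ± 0.23, edgeR adjusted p = 0.0349). The vehicle values lay above the untreated ones in each. The remaining called gene, Gm33228, was also higher (log2 change 1.67 ± 0.30, edgeR adjusted p = 0.0423). The libraries were not strand specific, so reads of Arntl, Ciart, Tef, Tspan4, Wee1, Snx22 and Acoxl cannot be told apart from those of genes that overlap them in the deposited coordinates. Just inside the threshold stood Wee1 and Slc46a3, and just outside it Clock, Heatr1 (edgeR adjusted p = 0.0612) and Lrtm2 (edgeR adjusted p = 0.0627).

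The vehicle lungs at 2 h place these differences in time. Between the vehicle lungs at 6 h and those at 2 h, 74 of 16778 genes differed (edgeR, adjusted p under 0.05), 0.441% of those tested, with 32 higher and 42 lower at 6 h. Arntl had 14.3, 10.7 and 15.2 CPM at 2 h, and its log2 change at 6 h over 2 h was -2.63 ± 0.37 (edgeR adjusted p = 0.00575). Vehicle at 2 h against untreated gave 11 called genes, all higher, 0.0656% of those tested. At 2 h over untreated the Arntl change was 0.08 ± 0.34 (edgeR adjusted p = 0.942), and the vehicle lungs at 2 h lay within the untreated range. Clock was lower at 6 h than at 2 h, where it had 88.0, 79.9 and 91.6 CPM, with a log2 change of -0.69 ± 0.09 (edgeR adjusted p = 0.00431). Cry1 rose by 1.00 ± 0.16 on the log2 scale at 6 h over 2 h (edgeR adjusted p = 0.0119), with 12.6, 14.1 and 17.3 CPM at 2 h. The 2 h and untreated comparisons share libraries with the main one, so the values are given side by side and are no independent support. With the replicate block the count of 74 was 28.

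Several of the strongest differences between 6 h and 2 h were in genes that stood high at 2 h. Fkbp5, a cochaperone induced by glucocorticoids, averaged 21.9 ± 4.29 CPM in untreated lungs, 122 ± 17.8 CPM at 2 h and 31.6 ± 4.69 CPM at 6 h (SD, n = 3 each). It fell by 1.95 on the log2 scale at 6 h against 2 h (SE 0.20, edgeR adjusted p = 0.000348), and at 6 h over untreated its change was 0.53 ± 0.20 (edgeR adjusted p = 0.417). Map3k6, a stress kinase, changed by -1.73 ± 0.19 at 6 h over 2 h (edgeR adjusted p = 0.00065). Cdkn1a, an inhibitor of the cell cycle, averaged 80.0 ± 33.3 CPM in untreated lungs, 212 ± 48.1 CPM at 2 h and 45.0 ± 2.10 CPM at 6 h (SD, n = 3 each). Its change at 6 h over 2 h was -2.24 ± 0.31 (edgeR adjusted p = 0.00575). Limk1, a kinase of the actin cytoskeleton, changed by -0.74 ± 0.10 (edgeR adjusted p = 0.00524). Lrtm2 ran the other way, with 51.4, 49.3 and 44.0 CPM at 6 h and 16.1, 14.5 and 14.1 CPM at 2 h (log2 change 1.69 ± 0.18, edgeR adjusted p = 0.000348). None of Fkbp5, Map3k6, Cdkn1a, Limk1 and Lrtm2 passed at 6 h against untreated.

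Nos2 and Adra1a had 2 h values below the untreated ones, though neither passed at 2 h. Nos2 averaged 7.81 CPM in untreated lungs, 4.09 CPM at 2 h and 3.61 CPM at 6 h. Its change was -0.93 ± 0.20 at 2 h over untreated (edgeR adjusted p = 0.0808) and -0.18 ± 0.20 at 6 h over 2 h (edgeR adjusted p = 0.872). Adra1a had 9.36, 8.68 and 9.31 CPM at 2 h, already below the 14.2 CPM of the lowest untreated lung, with a change of -0.70 ± 0.16 at 2 h over untreated (edgeR adjusted p = 0.115). Whether their time courses differ from those of the clock genes was not tested.

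The lungs of mice given Egf, 4 libraries at 6 h and 4 at 2 h, are not among the vehicle and untreated lungs compared. They were looked at after the 17 genes were known. A single edgeR fit over all 17 lung libraries, the Egf lungs included, set the spread for both comparisons. The values are therefore given side by side and are no independent support. Between Egf lungs at 6 h and at 2 h, edgeR called 1446 genes, 8.62% of those tested, with 708 higher, 4.22%, and 738 lower, 4.4%. Of the 17 genes, 15 had the same sign in that comparison, 13 were called and 12 were called in the same direction. Tef had a log2 change of 1.43 ± 0.16 there (edgeR adjusted p = 7.08e-05) and Arntl one of -2.28 ± 0.31 (edgeR adjusted p = 0.00033). Dbp, which did not pass against all 3 untreated lungs, had 128 to 191 CPM at 6 h after Egf and 22.3 to 40.6 CPM at 2 h (log2 change 2.34 ± 0.37, edgeR adjusted p = 0.0018). Adra1a was the exception called with the opposite sign, 0.55 ± 0.14 (edgeR adjusted p = 0.0247). Nos2 and Actg2 did not pass there (edgeR adjusted p = 0.469 and 0.902), nor did Cry1 (log2 change 0.44 ± 0.14, edgeR adjusted p = 0.0581) or Gm33228.

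In the other organs, vehicle at 6 h against untreated gave 3 called genes in heart, 33 in kidney and 91 in liver (edgeR, each organ's own fit), which were 0.0192%, 0.211% and 0.67% of the genes tested. Arntl had a log2 change of -2.30 ± 0.47 in heart, -2.82 ± 0.50 in kidney and -3.09 ± 0.53 in liver, and passed in kidney and liver (edgeR adjusted p = 0.108, 0.0237 and 0.00825). Tef rose in kidney by 0.81 ± 0.12 and in liver by 1.36 ± 0.24 (edgeR adjusted p = 0.00825 and 0.00949), and its change in heart was 0.96 ± 0.19 (edgeR adjusted p = 0.0891). Cry1 rose in kidney (1.82 ± 0.29, edgeR adjusted p = 0.0129), and its change was 0.16 ± 0.19 in heart and 0.30 ± 0.25 in liver.

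A direct test set the lung change against the mean change of the other 3 organs, over all 68 libraries. The labels give 3 untreated mice for the 12 untreated libraries, so organs share animals while the test takes libraries as independent, and its p-values have to be read with that limit. It called 3 of 18736 genes, or 0.016%, and none of the 16 genes named in lung. For Arntl the difference was 0.18 ± 0.55 and for Tef 0.04 ± 0.23 on the log2 scale. Gpr155, a membrane protein involved in cholesterol sensing, had 93.0, 107 and 125 CPM in the vehicle lungs and 71.5, 41.9 and 57.3 CPM in the untreated lungs, while its change lay between -0.15 and -0.07 in the other organs; the difference was 1.03 ± 0.19 (edgeR adjusted p = 0.035). Cish, a cytokine-induced inhibitor of cytokine signalling, had 28.4, 29.0 and 27.4 CPM in the vehicle lungs and 29.1, 29.8 and 30.1 CPM in the untreated lungs. In liver Cish had 35.3, 27.3 and 24.7 CPM in vehicle mice and 9.07, 8.46 and 5.75 CPM in untreated mice, and the difference between lung and the other organs was -1.25 ± 0.24 (edgeR adjusted p = 0.0355). Ier3, an early response gene, had 89.1, 77.0 and 97.9 CPM in the vehicle lungs and 126, 79.3 and 108 CPM in the untreated lungs. In heart Ier3 had 36.2, 34.6 and 40.3 CPM in vehicle mice and 18.4, 19.6 and 15.1 CPM in untreated mice, and the difference was -1.28 ± 0.25 (edgeR adjusted p = 0.0362). Each of the 3 calls was lost in 4 or more of the 6 fits that left out 1 lung library.

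None of the other gene lists held a gene called by edgeR in the vehicle lungs at 6 h against untreated lungs. As background for the lists, 8889 of all 16778 genes tested had a positive change and 7889 a negative one. An unadjusted p under 0.05 was reached by 9.8% of them. The interferon response genes were uneven across the untreated lungs. Of 30 tested, 27 had a negative log2 change, the median was -0.48, beside 0.02 over all genes, and 16 had an unadjusted p under 0.05, all lower; DESeq2 called 1 and limma voom 0. The list summed to 807, 735 and 837 CPM in the vehicle lungs and to 2100, 818 and 829 CPM in the untreated lungs, so untreated replicate 1 alone was high. Gbp2, a guanylate-binding protein, had 94.2, 64.6 and 96.1 CPM in the vehicle lungs and 423, 87.5 and 93.5 CPM in the untreated lungs. Without that library the list median was -0.11, and 1 gene in each direction had an unadjusted p under 0.05.

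Untreated replicate 1 was the highest of the 6 libraries for 27 of the 30 interferon genes in lung, for 24 of 28 in heart, for 26 of 27 in kidney and for 26 of 30 in liver. The share of all genes that were highest in that library was not counted, so these counts have no background beside them. In liver the list summed to 557, 494 and 620 CPM in the vehicle mice and to 1280, 679 and 548 CPM in the untreated mice.

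Of 25 glucocorticoid-induced genes, 20 had a positive change, beside 8889 of all 16778 genes, with a median of 0.41. At an unadjusted p under 0.05, 8 were higher and 1 lower, or 36%, beside 9.8% of all genes, and neither DESeq2 nor limma voom called any. Without untreated replicate 1 these were 4 higher and 2 lower, with a median of 0.38. Ddit4, an inhibitor of mTOR signalling, had 47.5, 67.2 and 55.9 CPM in the vehicle lungs and 31.0, 32.6 and 31.1 CPM in the untreated lungs (edgeR adjusted p = 0.284). Nfkbia, the inhibitor of NF-kB, had 132, 140 and 137 CPM, against 108, 103 and 98.8 CPM in the untreated lungs (edgeR adjusted p = 0.273). Of 28 immediate early genes, 23 had a negative change, the median was -0.32, and 6 had an unadjusted p under 0.05, all lower; DESeq2 and limma voom called 0. Nr4a1 had 18.8, 24.4 and 17.7 CPM in the vehicle lungs and 58.2, 28.5 and 26.1 CPM in the untreated lungs (edgeR adjusted p = 0.404), with untreated replicate 1 the highest. Without that library the immediate early median was -0.16, and 2 higher and 5 lower had an unadjusted p under 0.05.

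Matrix and antigen presentation genes were mostly below the untreated level. Among all 16778 genes tested, 7889 had a negative change and 9.8% had an unadjusted p under 0.05. Of 26 collagen and matrix genes, 23 had a negative change, the median was -0.26, and 8 had an unadjusted p under 0.05; DESeq2 called 2 and limma voom 2. Loxl1, which crosslinks elastin, had 98.4, 86.2 and 124 CPM in the vehicle lungs and 147, 194 and 170 CPM in the untreated lungs (edgeR adjusted p = 0.142). Elastin, Eln, had 124, 165 and 142 CPM, against 180, 273 and 240 CPM in the untreated lungs (edgeR adjusted p = 0.219). Fibroblast markers moved with them, at 3390, 3110 and 3570 CPM in the vehicle lungs and 3940, 4290 and 4210 CPM in the untreated lungs, and 2 collagens are on both lists; their part was not tested. All 10 class II antigen presentation genes had a negative change, with a median of -0.32, and 4 had an unadjusted p under 0.05; DESeq2 and limma voom called 0. Without untreated replicate 1 that count was 1 of 10 and the median -0.24. B cell markers, from a cell type that carries class II molecules, summed to 227, 133 and 192 CPM in the vehicle lungs and to 295, 395 and 345 CPM in the untreated lungs; their part was not tested.

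The Egf family, the target of the study's treatment, showed no call in mice that received none. Beside the lists below, 8889 of all 16778 genes tested had a positive change, 7889 a negative one, and 9.8% an unadjusted p under 0.05. Of 13 genes tested, 7 had a positive change, the median was 0.03, and 1, Egf itself, had an unadjusted p under 0.05; DESeq2 and limma voom called 0. Egf had 0.0533, 0.253 and 0.46 CPM in the vehicle lungs and 0.215, 0.301 and 41.2 CPM in the untreated lungs, and the library at 41.2 CPM was the one with kidney tubule markers. The receptor Egfr had 15.4, 17.2 and 19.9 CPM in the vehicle lungs and 21.2, 25.4 and 22.3 CPM in the untreated lungs (edgeR adjusted p = 0.762). Of 20 genes of MAPK and Egfr feedback, 15 had a negative change, with a median of -0.13 and 4 at an unadjusted p under 0.05; DESeq2 called 0 and limma voom 1. Of 14 genes of anaesthetic and xenobiotic handling, 13 had a positive change, with a median of 0.27 and 4 at an unadjusted p under 0.05; DESeq2 and limma voom called 0. Hepatocyte markers, given above, were high in vehicle replicates 2 and 3, and all 8 club and goblet cell markers had a positive change, with a median of 0.63 and sums of 31700, 22200 and 42100 CPM in the vehicle lungs and 29600, 26200 and 29900 CPM in the untreated lungs. The largest change of the list was that of Cyp2e1, with 29.9, 247 and 123 CPM in the vehicle lungs and 17.3, 48.5 and 29.3 CPM in the untreated lungs (edgeR adjusted p = 0.569). Cyp2f2 is on both the xenobiotic and the club cell list, and the part of either cell type was not tested. Cyp2b10, a cytochrome P450 induced by foreign compounds in liver, had 501, 560 and 458 CPM, against 375, 280 and 346 CPM in the untreated lungs (edgeR adjusted p = 0.271).

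The other 18 lists covered heat shock, hypoxia, antioxidant, metabolic, cell cycle and similar genes. The background is again 8889 positive and 7889 negative changes among all 16778 genes, with 9.8% at an unadjusted p under 0.05. Their medians lay between -0.28, for 18 NF-kB targets and chemokines, and 0.36, for the 2 cold-inducible genes Rbm3 and Cirbp. The share at an unadjusted p under 0.05 ran from 0% for the cold-inducible genes to 31.6% for the acute phase genes. It was 27.3% for hypoxia genes and 25% for antioxidant genes. Of 19 acute phase genes, 6 had an unadjusted p under 0.05, and DESeq2 called 1 and limma voom 2. Pim1, a kinase gene of cytokine signalling, had 18.6, 13.3 and 20.2 CPM in the vehicle lungs and 39.6, 28.5 and 26.9 CPM in the untreated lungs (edgeR adjusted p = 0.157). Of 24 ribosome biogenesis genes, 18 had a negative change with a median of -0.20, and 3, or 12.5%, had an unadjusted p under 0.05. Heatr1, a factor for ribosomal RNA transcription, had 27.3, 21.0 and 27.1 CPM, against 35.5, 42.9 and 45.9 CPM in the untreated lungs. DESeq2 and limma voom each called 1 of the 24. Of 21 respiratory chain genes, 19 had a positive change, with a median of 0.20. An unadjusted p under 0.05 was reached by 1 of them, or 4.76%, below the 9.8% of all genes. Cox4i1 had 308, 561 and 278 CPM, against 232, 330 and 319 CPM in the untreated lungs. Vehicle replicate 2 was the highest for Cox4i1. In the remaining lists DESeq2 called 1 cholesterol synthesis gene and limma voom 2 cell cycle genes.

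**Figure D4:**
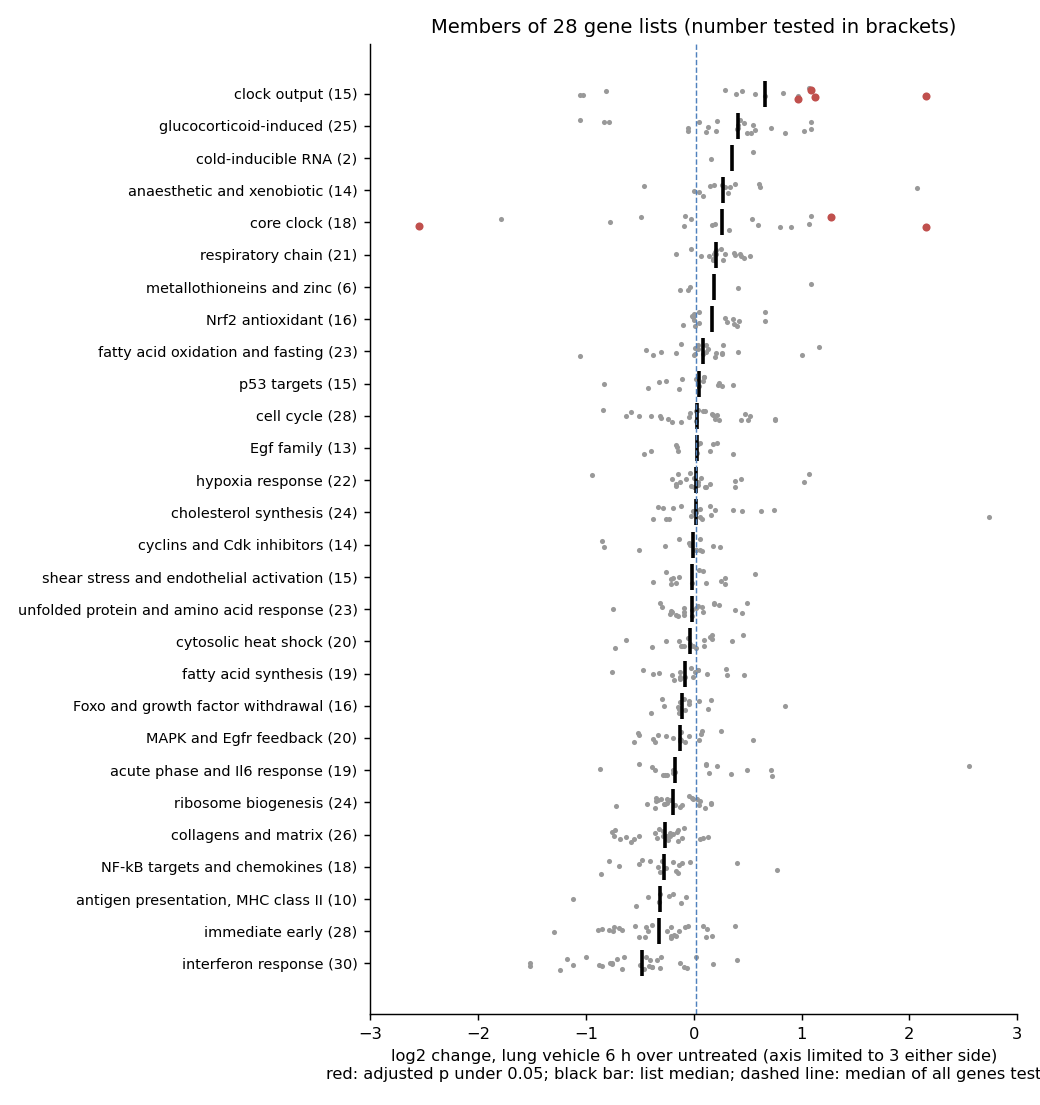
Each point is a member of 1 of 28 gene lists, with the log2 change in lung of vehicle 6 h over untreated on the horizontal axis, a black bar for the list median and a dashed line for the median of all genes tested. The called members, in red, are all on the core clock and clock output lists, and the interferon list lies furthest left of the larger lists, with a median of -0.48.

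The marker sums of B, T and natural killer cells lay lower in the vehicle lungs, in a design too small for a test to pass a threshold of 0.05. B cell markers summed to 227, 133 and 192 CPM in the vehicle lungs and to 295, 395 and 345 CPM in the untreated lungs, and all 10 had a negative log2 change. T cell markers summed to 73.7, 49.3 and 64.6 CPM, against 85.2, 105 and 101 CPM, and natural killer cell markers to 42.0, 47.0 and 59.7 CPM, against 86.0, 80.1 and 61.9 CPM in the untreated lungs. None of these 3 pairs of groups overlapped, and each gave p = 0.1 in a two-sided exact permutation test over the 6 libraries, the smallest p that 3 against 3 libraries allow. The lung endothelial marker sum also lay lower without overlap, at 6090, 4670 and 5850 CPM, against 6450, 6730 and 6210 CPM in the untreated lungs (exact permutation p = 0.1). Its members were mixed. Of the 11 endothelial markers tested, 3 had a positive change and 8 a negative one. At an unadjusted edgeR p under 0.05, 2 of them were higher and 1 lower. The fibroblast sum and that of mast cells and basophils were likewise lower without overlap (exact permutation p = 0.1 for each). The latter was 182, 142 and 175 CPM, against 225, 193 and 185 CPM in the untreated lungs. Kit alone gave 177, 132 and 170 CPM of it in the vehicle lungs and 217, 171 and 179 CPM in the untreated lungs. Of the 5 mast cell and basophil markers tested, 2 had a positive change and 3 a negative one. The plasma cell marker sum went the other way without overlap (exact permutation p = 0.1). It was 495, 491 and 500 CPM in the vehicle lungs and 444, 426 and 458 CPM in the untreated lungs. Sdc1 alone gave 483, 481 and 491 CPM of it in the vehicle lungs and 426, 412 and 447 CPM in the untreated lungs. Of the 5 plasma cell markers tested, 2 had a positive change and 3 a negative one, with a median log2 change of -0.12, so the sum follows Sdc1. Erythroid markers summed to 7110, 17600 and 5000 CPM in the vehicle lungs and to 5500, 7060 and 5950 CPM in the untreated lungs, with vehicle replicate 2 the highest. That library had the lowest B cell, T cell and endothelial sums and the highest hepatocyte and erythroid sums of the 3 vehicle lungs.

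**Figure D5:**
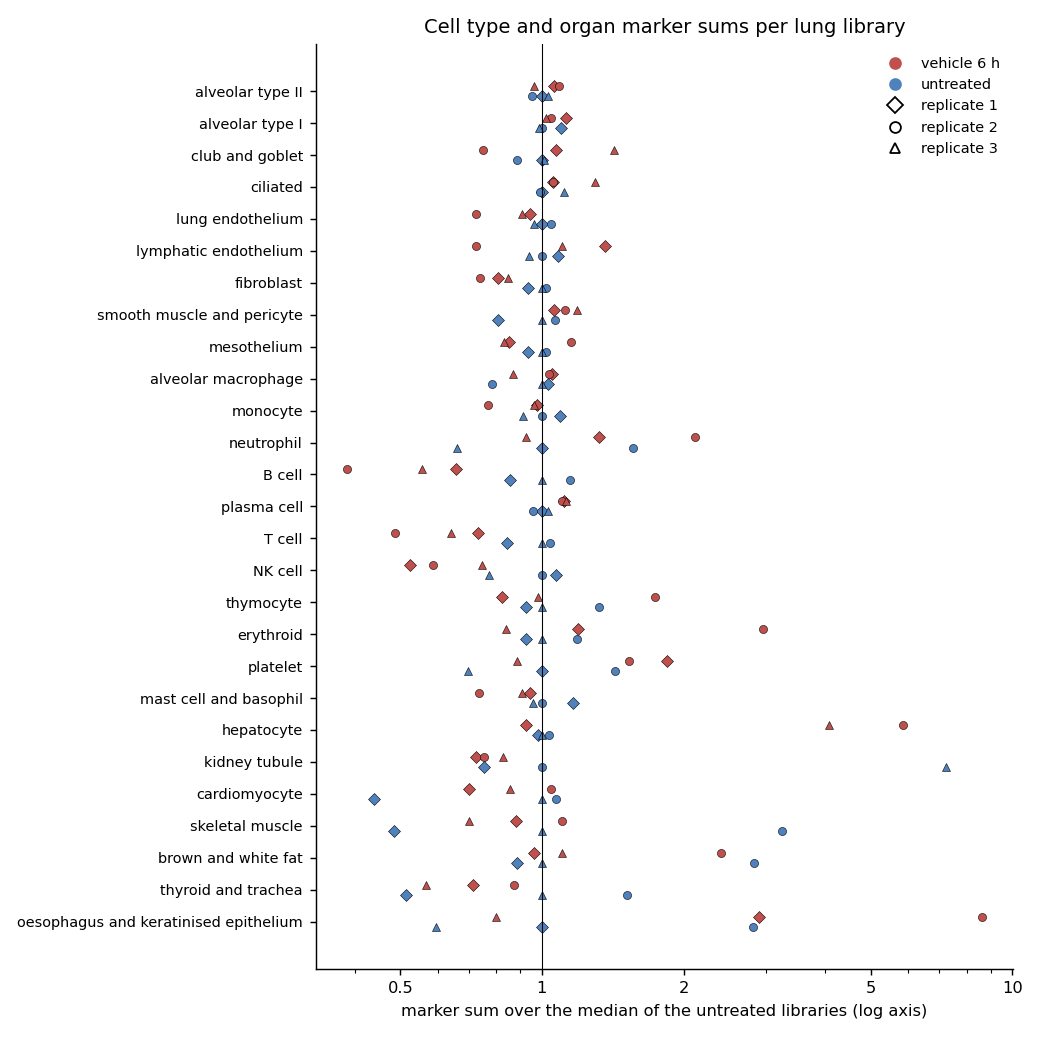
Each row is a list of cell type markers and each point 1 library, with its marker sum over the median of the untreated lungs on a logarithmic horizontal axis. Hepatocyte markers are high in vehicle replicates 2 and 3, kidney tubule markers in untreated replicate 3, and the 3 vehicle lungs lie below the 3 untreated lungs for B cells, with 227, 133 and 192 CPM against 295, 395 and 345 CPM.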

How the data were processed

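The authors deposited 1 table of raw read counts per gene for 68 libraries. The submitters' processing notes name HISAT2 2.0.5, featureCounts 1.5.0-p3 and mm39, and the libraries were not strand specific, per the labels' protocols. Groups follow the titles. From the counts, edgeR 4.0.16 (R 4.3.3) fitted a robust quasi-likelihood model to all 17 lung libraries, with filterByExpr, TMM scaling and Benjamini-Hochberg adjustment over the 16778 genes kept. CPM are TMM-scaled, except marker sums, which use library totals. Alternatives were DESeq2 1.42.0, limma voom 3.58.1, other scaling, filters and terms, and each library left out. The common biological coefficient of variation was 0.283.

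Genes were named if called, with either group averaging 1 CPM or more, no overlap between groups and an informative symbol, up to 15 in each direction, plus called members of the gene lists. For the comparison of 6 h with 2 h and for the test across organs, up to 8 called genes with the smallest p were named, and list members that did not pass were chosen after their values were seen. The lists were chosen with earlier results of these data known. Over genes, the deviations of same-numbered vehicle and untreated lungs from their group means had correlations of 0.389, 0.112 and 0.116. Differently numbered lungs gave -0.379 to 0.241, and 0.241 lies above 0.112 and 0.116. These values do not settle whether numbers pair the lungs, and the labels do not tie a number to a mouse or day. Reads without molecular identifiers are not independent molecules, so depth covers counting error only.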

Additional observations from a re-analysis of the deposited data

Results flagged for a closer look

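The test of the lung change against the mean change in heart, kidney and liver called 3 genes. The difference on the log2 scale was 1.03 for Gpr155, -1.25 for Cish and -1.28 for Ier3, as reported above. Groups of 3 libraries are too small for a search for outlying samples.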

How the results depend on the processing

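None of the 16 named genes changed sign in any fit. Vehicle 6 h against untreated lungs gave 17 genes with RLE size factors and 18 with no filter, 4 with the replicate block, 5 with the hepatocyte term, 144 with DESeq2, 124 with limma voom, and 0 when only the 6 libraries were fitted, where 1539 genes had an unadjusted p under 0.05. Leaving out 1 library gave 2 to 17 genes, with 2 without vehicle replicate 2, 3 without vehicle replicate 1 or untreated replicate 2 or 3, 8 without vehicle replicate 3 and 17 without untreated replicate 1. Vehicle 6 h against 2 h gave 28 genes with the replicate block, 46 with the hepatocyte term, 298 with DESeq2, 1409 with limma voom, 10 with only the 2 groups, and 17 to 45 with 1 library left out. The test across organs gave 0 genes with only 24 libraries, where 1019 had an unadjusted p under 0.05, 75 with limma voom, 141 with DESeq2, and 0 to 1 with 1 library left out. Beyond the counts above and the 12 named genes of the main comparison, the replicate block changed no call of a named gene. Over all fits, the core clock list held 0 to 6 called genes and the output list 0 to 7; the causes of these shifts were not tested. List medians ranged from 0.58 to 0.82 for clock output, from 0.22 to 0.32 for core clock and from -0.70 to -0.11 for interferon genes. At 16436692 to 19037959 reads a library, genes with too few reads to be among the 16778 tested allow no statement here.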
